A study of Mus musculus with 9 samples.

Results

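The genes described here are 38 genes of meiotic entry, synapsis and recombination, chosen by name for their known roles in the meiosis of spermatocytes. All 38 were found among the 55401 genes of the count table, and 37 of them passed the filter on low counts, which kept 22510 genes. The exception was Majin, which had no count in any library and is therefore without a measurement here. Poly(A) RNA of testes from wild-type (WT) male mice was sequenced in 3 groups of 3 libraries, and by the methods the mice were of the ICR stock. Input is the RNA before precipitation and carries no antibody, IgG is the RNA recovered with beads carrying a control immunoglobulin, and acRIP (IP in the labels) is the RNA recovered with an antibody against N4-acetylcytidine (ac4C), an acetylated cytidine found in RNA. By the methods, a β-globin probe with ac4C, made in vitro, had been mixed into the RNA before it met the beads. The labels give no age and do not say whether the libraries of a group come from separate animals or separate precipitations, so the p-values measure only the spread between these libraries. RNA of whole testis was used, and a level in such bulk RNA cannot tell the number of cells from the RNA per cell. The groups are fractions of testis RNA, so a difference between them is one in a gene's share of a library. It is not a measure of expression in cells.

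Meiosis turns a spermatocyte with paired chromosomes into haploid spermatids. Retinoic acid switches on Stra8 at entry, the cohesin-based axis organises each chromosome, programmed breaks are made in DNA, and strand exchange with the homologous chromosome repairs them. The synaptonemal complex zips the homologues together while crossover factors turn some of the breaks into exchanges, and telomeres held at the nuclear envelope help the homologues to find each other. Acetylation of cytidine is laid down by NAT10, and an mRNA that carries more of it should be recovered more by the antibody than by IgG and more than in input.

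Total counts were 22023925 to 31340090 in input, 14647542 to 18786779 in IgG and 16025779 to 18639134 in acRIP. Genes with at least 1 count numbered 28552 to 29642 in the input libraries, 26204 to 26874 in IgG and 22206 to 22402 in acRIP, so the acRIP libraries held counts for fewer genes than any other library. The 38 genes together took 0.283% to 0.289% of the counts in input, 0.258% to 0.268% in IgG and 0.222% to 0.227% in acRIP, and the 3 groups did not overlap. The 8 spermatocyte markers (among them Piwil1, Ldhc and Ccna1) were all measured. Their summed level moved the same way, with 6200 to 6260 FPKM in input, 5860 to 5870 in IgG and 5380 to 5640 in acRIP. Not every marker followed the sum. Ccna1 averaged 117, 112 and 125 FPKM in the same order and Mybl1 4.82, 10.9 and 5.96, whereas Hspa2 averaged 271, 264 and 212. FPKM is the count per kilobase of merged exons, scaled to the library's total. The 8 spermatid markers summed to 26700 to 30700 FPKM in input, 31000 to 32100 in IgG and 31600 to 34300 in acRIP. Spermatogonial markers summed to 27.4 to 33.4 FPKM in input, 50.3 to 55.7 in IgG and 45.2 to 51.0 in acRIP, and peritubular markers to 16.6 to 17.5, 22.1 to 24.3 and 23.1 to 25.6. Sertoli markers fell in the order of the spermatocyte markers, with 262 to 273, 222 to 234 and 198 to 204 FPKM. Leydig markers summed to 671 to 747, 649 to 666 and 610 to 664 FPKM, and macrophage markers to 71.4 to 76.0, 57.0 to 62.7 and 66.7 to 68.5. The erythrocyte list, which holds the globin genes, summed to 184 to 189 FPKM in input, 248 to 267 in IgG and 892 to 1170 in acRIP, and a globin probe was added before precipitation. Rhox5, a Sertoli cell marker, and Epb42, an erythrocyte marker, had no count in any library. The part of cell type or of the number of detected genes in the results below was not tested.

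None of the 37 measured genes met the study's kind of rule for an acetylated mRNA, a level more than 2-fold higher in acRIP than in both IgG and input, while 7 were called lower than both. Terb2, Msh5, Msh4, Ccnb1ip1, Hfm1, Hormad2 and Rad21l made up the lower set, and Rad21l, which had no count in acRIP, left 6 when only the 6 libraries compared were fitted or the counts were halved. Under a rule on FPKM + 1, which shrinks the ratios of scarce genes, Hfm1 (-0.93) and Rad21l (-0.57) lost the call against IgG. A gene was called here when its adjusted p from edgeR was under 0.05 and its fold over 2. The study describes ratios of FPKM + 1 for its cell line, which is another measure. A rule on FPKM + 1 called 0 of the meiotic genes higher against IgG. Over all genes it called 703 higher than both, in place of 1774 with edgeR. Among all tested genes, 7.88% were called higher than both and 17.0% lower than both, against 0 and 18.9% of the measured meiotic genes. The share that was lower thus lay near that of all genes. Of its 7 genes, 4 are crossover genes.

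Against IgG, 2 genes were called higher, Prdm9 and Mei1, beside 11.5% of all tested genes. Another 9 were called lower, Rad21l without counts in acRIP among them, which is 24.3% beside 20.9% of all genes. At any fold change, 7 genes were higher (18.9% beside 26.4%) and 22 were lower (59.5% beside 37.6%). The median log2 fold change was -0.22 over the 37 genes and -0.09 over all tested genes. Mei4, which had no count in acRIP or IgG, entered this median as 0, which is not a measured value.

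Against input, no gene was called higher, beside 17.7% of all genes, and 12 were called lower, which is 32.4% beside 22.9%. Without the limit on fold, 7 were higher (18.9% beside 32.0%) and 23 were lower (62.2% beside 40.3%). The median log2 fold change was -0.44, and -0.10 over all tested genes. Comparing IgG with input sets what the beads recover without the ac4C antibody beside the RNA before precipitation. By the methods only input was brought to a fixed concentration, so this comparison may also hold a difference in RNA amount. There, no meiotic gene was called higher beside 13.5% of all genes, and 2 were called lower (Prdm9 and Mei4, 5.41% beside 7.22%). Mei4 had no count in IgG or acRIP and passed the filter through input alone, so its calls rest on that filter. Rad21l, with no count in acRIP, is also among the 12 called lower than input. The 3 comparisons share libraries pairwise and are not independent of each other.

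**Figure D1:**
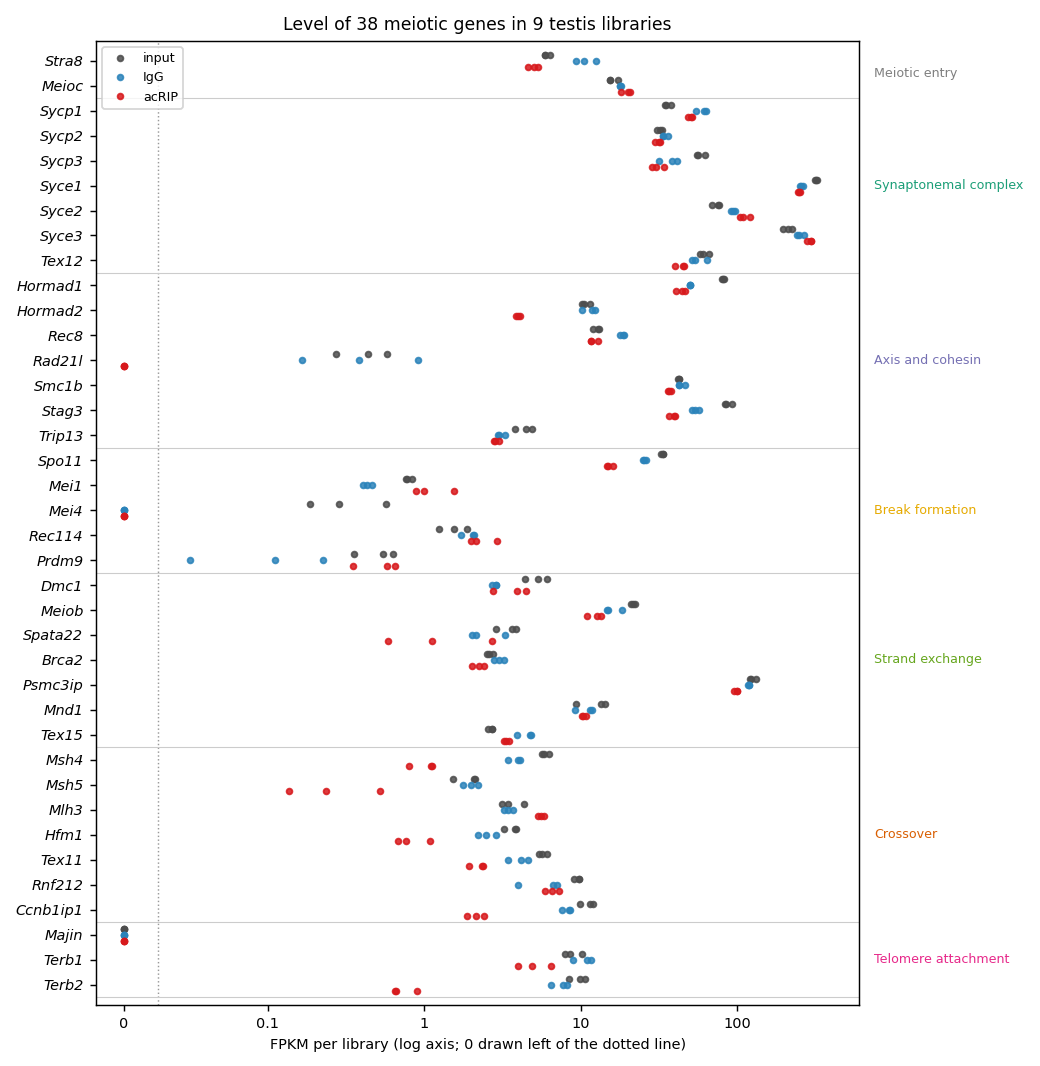
Level in FPKM (log axis) of each of the 38 genes in each of the 9 libraries, ordered by role, with one point per library and one colour per group. The acRIP points of Terb2, Msh4, Msh5, Hfm1, Ccnb1ip1 and Hormad2 lie below all points of the other groups, and Majin is at 0 throughout.

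The crossover genes held the largest number of calls. Against IgG 4 of 7 were called lower and none higher, and against input 5 of 7 were called lower. Of all tested genes 20.9% and 22.9% were called lower. Another 16 genes, put under crossover in the further list described below, did not share this. They are not all of the same kind as the 7, since Fancm among them limits crossovers. Against IgG 2 of the 16 were lower and 1 higher (median log2 fold change 0.01), and against input 3 were lower and 0 higher (median -0.18). Msh4 and Msh5, the MutS homologues that act together at recombination intermediates, were both in the lower set. Msh4 had 6.27, 5.80 and 5.66 FPKM in the input libraries, 4.09, 3.97 and 3.44 in IgG and 0.796, 1.10 and 1.12 in acRIP. The acRIP libraries were thus far below all others, and IgG lay between. Its log2 fold change was -1.87 ± 0.13 (SE, n = 3 against 3) against IgG (edgeR, adjusted p = 1.7e-13) and -2.47 ± 0.12 against input (adjusted p = 6.82e-18).

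Msh5 had 2.12, 2.07 and 1.52 FPKM in input, 2.19, 1.98 and 1.77 in IgG and 0.237, 0.136 and 0.518 in acRIP. Input and IgG overlapped, and every acRIP library lay below both. On the log2 scale it differed by -2.70 ± 0.27 against IgG (adjusted p = 6.52e-10) and -2.62 ± 0.27 against input (adjusted p = 3.11e-10). The acRIP values rest on 21, 14 and 48 counts. Without acRIP replicate 3, the highest of them, the log2 fold changes were -3.36 and -3.28.

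Hfm1, a DNA helicase needed for crossovers, had 3.25, 3.82 and 3.83 FPKM in input, 2.85, 2.19 and 2.48 in IgG and 0.681, 1.08 and 0.767 in acRIP. The highest acRIP value was below the lowest IgG value. The fall was 2.85-fold against IgG (adjusted p = 2.04e-09) and 4.05-fold against input (adjusted p = 4.86e-13). Ccnb1ip1 (HEI10), a ligase that marks crossover sites, had 9.93, 11.9 and 11.4 FPKM in input, 8.48, 7.58 and 8.45 in IgG and 2.39, 1.88 and 2.15 in acRIP. Here the 3 groups were ordered without overlap, and acRIP was 3.70-fold below IgG (adjusted p = 1.64e-11) and 4.91-fold below input (adjusted p = 1.45e-14). Of its merged exon length 12.4% overlaps Rpph1 on the same strand, so part of its counts is uncertain.

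Tex11, an X-linked crossover factor, was called lower only against input. It had 5.41, 6.04 and 5.67 FPKM in input, 4.63, 3.44 and 4.13 in IgG and 2.38, 1.92 and 2.34 in acRIP. The test gave a log2 fold change of -1.29 ± 0.14 against input (adjusted p = 1.75e-09) and -0.83 ± 0.15 against IgG (adjusted p = 1.41e-05), short of the fold limit in the latter. Rnf212, which stabilises recombination proteins at crossover sites, had log2 fold changes of 0.21 ± 0.17 against IgG (adjusted p = 0.288) and -0.45 ± 0.16 against input (adjusted p = 0.0144).

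Mlh3, a MutL homologue that acts in resolving crossovers, went the other way from its group. It had 3.43, 3.14 and 4.32 FPKM in input, 3.22, 3.42 and 3.71 in IgG and 5.34, 5.57 and 5.80 in acRIP. All acRIP libraries were above all others, and input and IgG overlapped. The rise was 1.67-fold against IgG (adjusted p = 3.1e-07) and 1.62-fold against input (adjusted p = 2.83e-07), under the limit of 2.

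The motif that the study reports for acetylated mRNAs is rich in cytidine. In the relaxed form CCNCAGNNC, searched on the sense strand of the longest protein-coding transcript of each gene, Msh5 held 7 matches, all in its coding sequence, the most of the 37 measured genes. A selection is shown, for genes that were lower than both groups (Msh5, Hormad2, Terb2) or had higher values than both (Mei1, Mlh3), as windows of 29 bases from the mouse transcripts of GENCODE vM21 (build mm10), written 5′ to 3′, with the 9 matching letters in capitals.
Msh5, chr17:35046340-35046368, minus strand, coding: ttcagagcgaCCCCAGGCCggacgccgcc
Msh5, chr17:35045947-35045975, minus strand, coding: atgccagatgCCCCAGACCacgagagcct
Msh5, chr17:35039245-35039273, minus strand, coding: cttcctgatgCCTCAGAACctggacatgg
Hormad2, chr11:4346030-4346058, minus strand, 3′ UTR: ctgtgcagttCCTCAGCTCtgccccaggc
Terb2, chr2:122205982-122206010, plus strand, 3′ UTR: tgcgtgtgagCCTCAGCTCtaccttttcc
Mei1, chr15:82112923-82112951, plus strand, coding: caggctcctcCCCCAGGACgccactgctc
Mlh3, chr12:85268497-85268525, minus strand, coding: caccgttctgCCTCAGAACtccacgggat
The same 9 letters CCTCAGAAC stood in Msh5, which was lower in acRIP, and in Mlh3, which was higher. These letters match only the relaxed form, since the motif of the study, CCHCAGSHC, asks for C or G (S) after CAG. Hormad2 and Terb2, both lower in acRIP, shared the letters CCTCAGCTC, which match the form of the study. In the relaxed form Hormad2 held 3 matches, Mei1 3, Mlh3 2, Terb2 2, Ccnb1ip1 1 and Syce2 1, whereas Msh4, Hfm1, Rad21l and Prdm9 held none. In the form of the study Msh5 held 3, Hormad2 3, Mei1 2, Terb2 1 and Syce2 1, and Mlh3 and Ccnb1ip1 held 0. A match is a description of the letters and not a site of acetylation.

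Apart from Rad21l and Mei4, which had no count in acRIP, Terb2 had the largest fall of the 37 genes against both groups. It ties telomeres to the nuclear envelope together with TERB1 and MAJIN, and had 9.90, 8.37 and 10.6 FPKM in input, 6.42, 7.68 and 8.11 in IgG and 0.649, 0.660 and 0.902 in acRIP. The acRIP libraries were far under the other groups, which themselves did not overlap. It was 9.72-fold lower in acRIP than in IgG (log2 fold change -3.28 ± 0.19, adjusted p = 8.56e-15) and 12.3-fold lower than in input (-3.63 ± 0.19, adjusted p = 2.14e-17).

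Terb1, its partner, had 7.97, 8.47 and 10.1 FPKM in input, 8.87, 10.9 and 11.7 in IgG and 6.41, 4.88 and 3.99 in acRIP. The acRIP libraries were below all others. Against IgG its log2 fold change was -1.0 ± 0.13 (adjusted p = 6.86e-08), at the fold limit, so that this call was lost under 14 of 21 other settings, with values from -1.0 to -0.85. Against input it was -0.72 ± 0.13 (adjusted p = 9.36e-06).

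Axis and cohesin genes gave 2 calls of 7 against IgG and 3 of 7 against input, all lower, beside 20.9% and 22.9% of all tested genes. Hormad2 and Hormad1 both coat unsynapsed axes, and they differed from each other. Hormad2 had 11.4, 10.2 and 10.5 FPKM in input, 10.2, 12.4 and 11.8 in IgG and 3.97, 3.87 and 4.08 in acRIP. Input and IgG overlapped, and all acRIP values lay far below them in a narrow range. The fall was 2.80-fold against IgG (adjusted p = 2.27e-12) and 2.56-fold against input (adjusted p = 2.3e-12).

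Hormad1 had 81.6, 81.4 and 79.4 FPKM in input, 49.9, 50.0 and 49.5 in IgG and 44.0, 40.7 and 46.3 in acRIP. Most of the difference from input was present in IgG already. Its log2 values were -0.14 ± 0.06 against IgG (adjusted p = 0.0321), -0.81 ± 0.06 against input (adjusted p = 2.62e-14) and -0.67 ± 0.06 for IgG against input (adjusted p = 3.6e-12).

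Rad21l, a meiotic kleisin (a subunit of the cohesin ring), was scarce. It had 30, 10 and 16 counts in the input libraries, 4, 12 and 28 in IgG and 0, 0 and 0 in acRIP. No acRIP library held a count, and the IgG libraries spread widely. Rad21l passed the filter on low counts through the groups in which it was present, and did not pass it when only the 6 libraries compared were fitted or the counts were halved, so its call rests on that filter. Against the 3 counts per library that a 0 allows, acRIP was at least 4.44-fold lower than IgG and at least 3.83-fold lower than input. Because 81.9% to 84.3% of the counts from 1 to 20 were even, in which case a pair of mates may have been counted as 2, the bounds were also set against 6 counts and were then at least 2.22-fold and 1.92-fold.

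Rec8, the other meiotic kleisin, had 12.8, 12.0 and 13.0 FPKM in input, 18.5, 17.8 and 19 in IgG and 12.9, 11.6 and 11.7 in acRIP. IgG stood above both of the other groups, which overlapped. On the log2 scale acRIP differed by -0.56 ± 0.08 against IgG (adjusted p = 4e-07) and 0.02 ± 0.08 against input (adjusted p = 0.875). Stag3, the meiotic cohesin subunit that binds the kleisin, had 83.7, 84.9 and 92.7 FPKM in input, 51.2, 53.4 and 56.5 in IgG and 39.8, 36.7 and 39.3 in acRIP. It was called lower against input only (log2 fold change -1.09 ± 0.05, adjusted p = 4.44e-20), with -0.43 ± 0.05 against IgG (adjusted p = 2.1e-09). Smc1b, the meiotic SMC subunit, and Trip13, which removes HORMADs from axes, had log2 fold changes of -0.20 ± 0.05 and -0.05 ± 0.15 against IgG and of -0.12 ± 0.05 and -0.53 ± 0.14 against input.

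**Figure D2:**
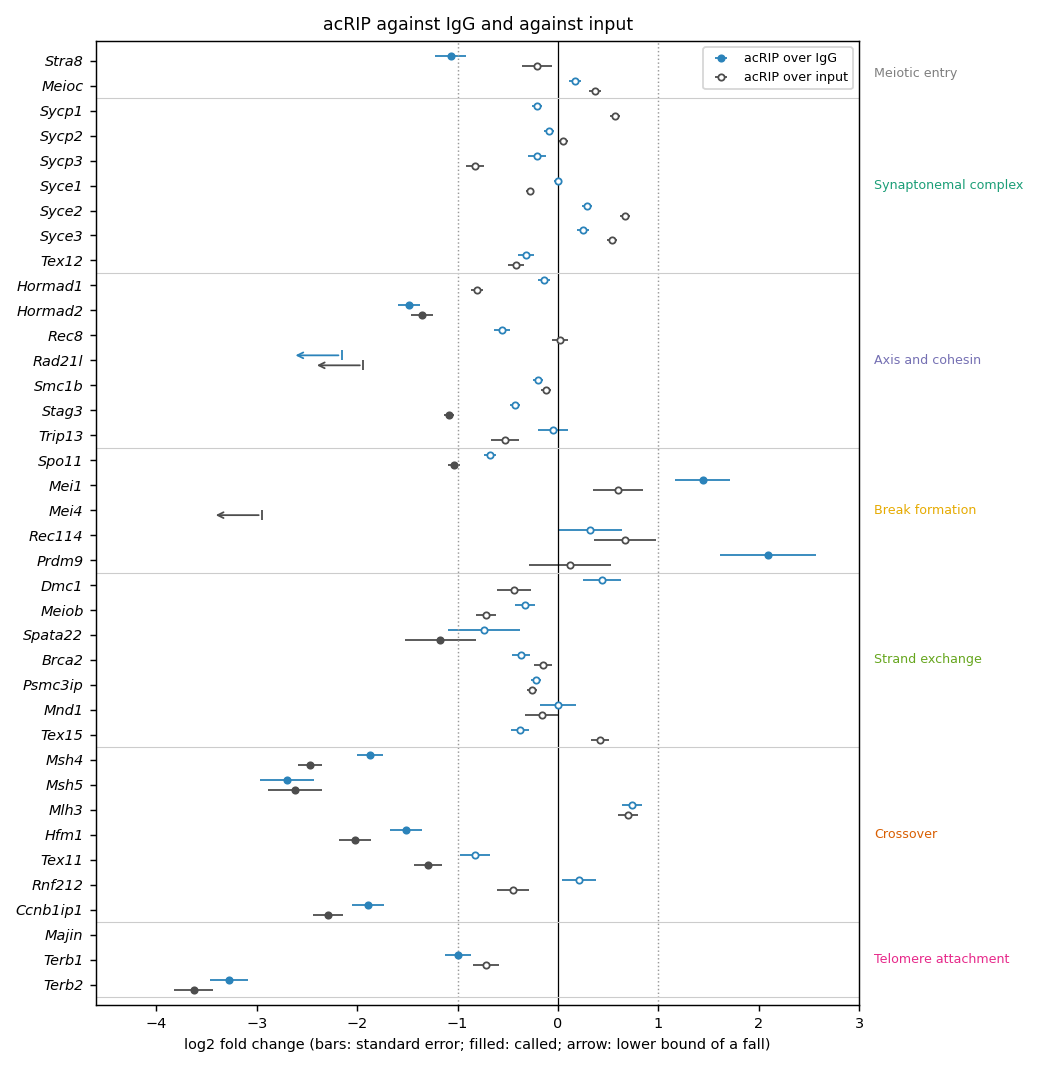
Log2 fold change of each gene in acRIP against IgG (blue) and against input (grey), with standard errors from edgeR; filled points are called (adjusted p under 0.05 and fold over 2) and arrows start at the lower bound of a fall for genes without counts in acRIP. Terb2 lies furthest to the left of the genes with counts in acRIP, at -3.28 and -3.63, and 5 of 7 crossover genes lie to the left of 0 in both comparisons, while Mlh3 lies to the right at 0.74 and 0.70. The synaptonemal complex genes lie between -0.83 and 0.67.

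None of the 7 synaptonemal complex genes was called in any comparison, although most differed by less than the fold limit. All had over 10 FPKM in input, a level at which few coding genes were called against IgG. From 10 to 100 FPKM, 2.87% were lower and 0.345% higher, and from 100 FPKM 0.13% each way. Against input, the shares were 10.3% and 4.20%, and 4.56% and 1.43%. The synaptonemal complex genes were among the most abundant of the 38 genes, with Syce1, a central element protein, at 318, 314 and 321 FPKM in input. Its log2 fold change was 0.00 ± 0.04 against IgG (adjusted p = 0.958) and -0.28 ± 0.04 against input (adjusted p = 7.65e-08). Syce2 and Syce3, other central element proteins, had more FPKM in acRIP than in IgG and input and passed the test without the fold limit. Syce2 had 75.5, 76.6 and 69.3 FPKM in input, 96.6, 90.9 and 94.5 in IgG and 109, 120 and 104 in acRIP. The 3 groups were ordered without overlap, with a rise of 0.29 ± 0.05 on the log2 scale against IgG (adjusted p = 2.06e-05) and 0.67 ± 0.05 against input (adjusted p = 9.59e-13). For Syce3 the log2 fold changes were 0.25 ± 0.06 and 0.54 ± 0.05. Tex12, the partner of SYCE2, fell by 0.32 against IgG and by 0.42 against input on the same scale (adjusted p = 0.0013 and 3.84e-05).

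Sycp1, the transverse filament, and Sycp3, a lateral element protein, are the usual markers of the complex. Sycp1 had 37.5, 34.6 and 35.1 FPKM in input, 63.5, 54.7 and 61.3 in IgG and 51.6, 48.3 and 50.4 in acRIP. It was highest in IgG, with a log2 fold change of -0.21 ± 0.05 against IgG (adjusted p = 0.00106) and 0.57 ± 0.05 against input (adjusted p = 4.38e-11). Sycp3 had 62.1, 56.1 and 55.0 FPKM in input, 38.3, 31.5 and 41.2 in IgG and 34.2, 28.3 and 30.2 in acRIP. Both recovered groups were below input and overlapped each other, with -0.21 ± 0.09 against IgG (adjusted p = 0.0388) and -0.83 ± 0.09 against input (adjusted p = 5.35e-10). Of the merged exons of Sycp3, 52.2% overlap the antisense gene Chpt1, and whether strand was used in counting is not given in the sources used here. Sycp2, the partner of SYCP3, had -0.09 ± 0.05 against IgG (adjusted p = 0.0962) and 0.05 ± 0.05 against input (adjusted p = 0.324).

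Genes of break formation held both calls for a higher level against IgG, and in neither was the level more than 2-fold above input. Prdm9, the histone methyltransferase that places the breaks, had 0.630, 0.548 and 0.356 FPKM in input, 0.0317, 0.111 and 0.225 in IgG and 0.348, 0.648 and 0.581 in acRIP. Input and acRIP overlapped, and IgG lay below both. Its log2 fold change was 2.09 ± 0.48 against IgG (adjusted p = 0.000351), 0.12 ± 0.41 against input (adjusted p = 0.81) and -1.98 ± 0.47 for IgG against input (adjusted p = 0.000732). The IgG libraries held 2, 9 and 18 counts. Without IgG replicate 3 the value was 2.84 against IgG, and -2.72 for IgG against input.

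Mei1, needed to form breaks, had 0.767, 0.776 and 0.837 FPKM in input, 0.432, 0.460 and 0.408 in IgG and 1.55, 0.996 and 0.880 in acRIP. All acRIP libraries were above all others and IgG was lowest. The log2 fold change was 1.44 ± 0.27 against IgG (adjusted p = 3.58e-05) and 0.60 ± 0.25 against input (adjusted p = 0.0334), the latter under the fold limit. Mei4 had 24, 26 and 52 counts in input and none in the IgG and acRIP libraries. It passed the filter through input alone. Relative to input, its level was at least 7.70-fold lower in acRIP and at least 7.99-fold lower in IgG (3.85-fold and 3.99-fold against 6 counts). No difference between acRIP and IgG can be measured for it.

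Spo11, which cuts the DNA, had 33.3, 33.6 and 32.7 FPKM in input, 24.8, 25.3 and 26.0 in IgG and 14.9, 14.7 and 16.1 in acRIP. The groups were ordered without overlap. It was called against input, with a log2 fold change of -1.04 ± 0.06 (adjusted p = 6.76e-17), and not against IgG (-0.68 ± 0.06, adjusted p = 1.93e-11). Rec114, the partner of MEI4, had 1.87, 1.24 and 1.55 FPKM in input, 2.09, 1.71 and 2.06 in IgG and 2.00, 2.90 and 2.15 in acRIP, and passed in no comparison (adjusted p = 0.38 against IgG and 0.055 against input).

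In the strand exchange group, 1 of 7 genes was called, lower and only against input. Of all tested genes 22.9% were called lower against input and 20.9% against IgG. Spata22, which binds single-stranded DNA with MEIOB, had 3.86, 2.85 and 3.61 FPKM in input, 2.14, 3.30 and 2.03 in IgG and 2.69, 0.590 and 1.12 in acRIP. Its acRIP libraries disagreed widely. The log2 fold change against input was -1.17 ± 0.35 (adjusted p = 0.00379), with -1.93 without acRIP replicate 1 and -0.77, no longer called, without acRIP replicate 2. Against IgG it was -0.74 ± 0.36 (adjusted p = 0.077) and became a call, at -1.50, without acRIP replicate 1. Its exons overlap those of Gm49340 on the same strand over 80.5% of their length, so its counts are uncertain.

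Dmc1, the meiotic recombinase, had 5.35, 6.08 and 4.40 FPKM in input, 2.89, 2.71 and 2.85 in IgG and 3.92, 2.73 and 4.46 in acRIP. The acRIP libraries overlapped both groups, with 0.44 ± 0.19 against IgG (adjusted p = 0.0383) and -0.44 ± 0.17 against input (adjusted p = 0.0255). Brca2, which acts in loading DMC1, had 2.51, 2.76 and 2.60 FPKM in input, 3.21, 2.79 and 2.98 in IgG and 2.03, 2.41 and 2.25 in acRIP, with -0.37 ± 0.09 against IgG (adjusted p = 0.000626) and -0.15 ± 0.09 against input (adjusted p = 0.126). Meiob, Psmc3ip, Mnd1 and Tex15 had log2 fold changes from -0.38 to 0.00 against IgG. Tex15 was higher than input (0.42 ± 0.09, adjusted p = 0.000179) and lower than IgG (-0.38 ± 0.09, adjusted p = 0.000621).

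At meiotic entry, Stra8 had 6.37, 5.94 and 5.92 FPKM in input, 10.5, 12.5 and 9.31 in IgG and 4.57, 5.36 and 4.99 in acRIP. It was highest in IgG. The log2 fold change was -1.07 ± 0.15 against IgG (adjusted p = 2.6e-07), which went to -0.94 and lost the call without IgG replicate 2, and -0.21 ± 0.15 against input (adjusted p = 0.204). Meioc, which keeps the meiotic programme running, was higher in acRIP by 0.17 ± 0.06 against IgG (adjusted p = 0.0173) and by 0.37 ± 0.06 against input (adjusted p = 4.64e-06).

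Ratios of FPKM within a library set genes of shared function side by side and do not depend on the scaling between libraries. The pairs were chosen after the values had been seen and carry no test. Terb1 over Terb2 was 0.806, 1.01 and 0.953 in input, 1.38, 1.42 and 1.45 in IgG and 9.87, 7.40 and 4.43 in acRIP. Mlh3 over Msh4 averaged 0.617 ± 0.126 (SD, n = 3) in input, 0.909 ± 0.151 in IgG and 5.65 ± 0.921 in acRIP. For both pairs the acRIP libraries stood apart from the rest. Hormad1 over Hormad2 averaged 7.56 ± 0.426, 4.37 ± 0.470 and 11.0 ± 0.428 in the same order. Psmc3ip over Mnd1, whose proteins form one complex that assists strand exchange, averaged 10.4 ± 2.26, 11.1 ± 1.65 and 9.46 ± 0.280. The input libraries overlapped both other groups, and the acRIP libraries (9.21 to 9.76) lay just below the IgG libraries (9.95 to 13.0). Sycp1 over Sycp3 differed between input (0.619 ± 0.0173) and the recovered groups (1.63 ± 0.126 in IgG and 1.63 ± 0.105 in acRIP).

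**Figure D3:**
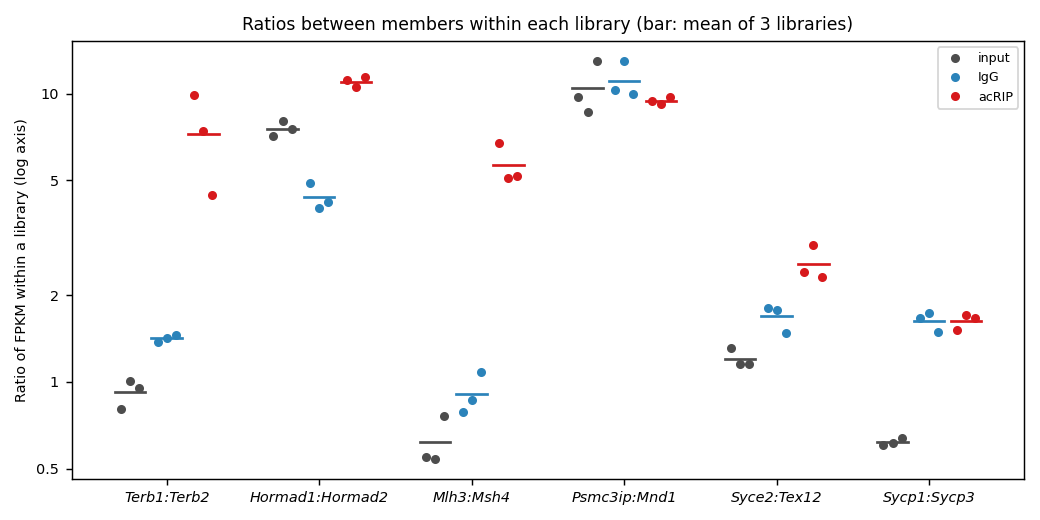
Ratio of FPKM of 2 genes within each library (log axis), one point per library, with a bar at the mean of the 3 libraries of a group. Terb1:Terb2 and Mlh3:Msh4 are highest in acRIP (4.43 to 9.87 and 5.08 to 6.71), whereas Psmc3ip:Mnd1 lies between 8.61 and 13.0 in all 9 libraries.

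The share of coding genes called lower differed with their abundance, so the meiotic genes were set beside protein-coding genes of like input level. From 1 to 10 FPKM, 6 of 15 meiotic genes were called lower against IgG, beside 16.4% of coding genes, and the median log2 fold change was -0.74 beside -0.11. From 10 to 100 FPKM, 2 of 15 were called lower, beside 2.87%, with medians of -0.21 and -0.07. Under 1 FPKM, 1 of 4 was lower and 2 of 4 were higher, beside 38.5% and 20.1%. None of the 3 genes of 100 FPKM and over was called, beside 0.13% of coding genes lower and 0.13% higher. These shares describe the genes chosen and were not tested.

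**Figure D4:**
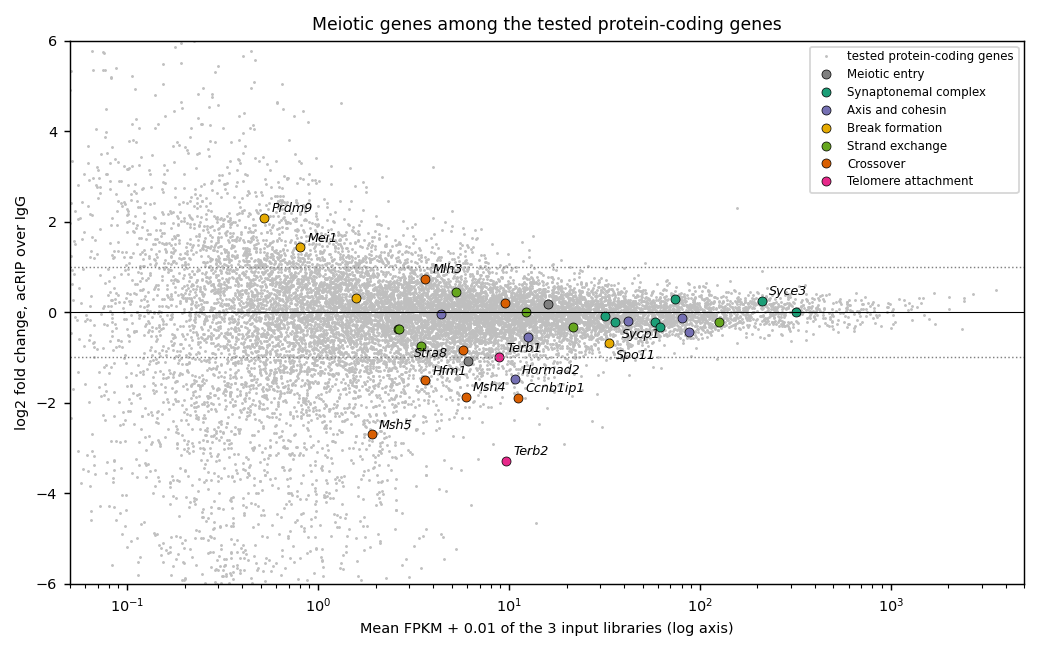
Log2 fold change of acRIP over IgG against mean input level in FPKM (log axis), with 15485 other tested protein-coding genes in grey (1175 of them lie outside the axes) and the measured meiotic genes coloured by role, without Rad21l and Mei4, which have only bounds or no value. Terb2, Ccnb1ip1 and Hormad2 lie low among the genes of their level, and Syce3 and Sycp1 near 0.

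Transcripts of the 37 measured genes were poorer in cytidine and shorter than those of other genes. Their median cytidine content was 20.6%, with a range from 14.3% to 29%, beside 24.5% over all tested coding genes, and the median transcript had 2180 bases beside 2980. At least 1 match to CCNCAGNNC stood in 18 of 37 (48.6%), beside 71.8% of coding genes, and matches per kilobase were 0.317 beside 0.560. The form of the study, CCHCAGSHC, stood in 9 of 37 (24.3%), beside 47.0%. Across the 37 genes the log2 fold change of acRIP over IgG had a Spearman correlation of 0.18 with cytidine content and of -0.12 with matches per kilobase, values that share the libraries and the base composition. Mei4, without counts in acRIP or IgG, entered them with a fold change of 0 on the log2 scale. Across all coding genes the correlations were 0.05 and 0.01.

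A further list held 85 genes of meiosis outside the 38, of which 83 were tested. Against IgG 3 were called higher (3.61% beside 11.5% of all tested genes) and 6 lower (7.23% beside 20.9%). Against input 5 were called higher (6.02% beside 17.7%) and 11 lower (13.3% beside 22.9%), whereas IgG against input gave 8 higher (9.64% beside 13.5%) and 2 lower (2.41% beside 7.22%). The median log2 fold changes of acRIP were -0.12 and -0.05. Hus1b, a testis paralogue of a checkpoint clamp subunit, was called higher than both groups, with log2 fold changes of 1.73 ± 0.24 (adjusted p = 2.32e-07) and 1.27 ± 0.22 (adjusted p = 8.3e-06). Among those called lower than both were Palb2, a binding partner of BRCA2, Fancm, a helicase that limits crossovers, and Gm960, the break factor also called Top6bl. Palb2 averaged 1.14 ± 0.0418 FPKM in input, 0.932 ± 0.0594 in IgG and 0.152 ± 0.0826 in acRIP (SD, n = 3), with log2 fold changes of -2.57 ± 0.28 (adjusted p = 3.11e-09) and -2.83 ± 0.27 (adjusted p = 8.32e-11). Fancm had 130, 82 and 78 counts in input, 125, 156 and 114 in IgG and 0, 2 and 2 in acRIP.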

How the data were processed

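Poly(A) RNA of WT mouse testes was measured in 9 libraries, 3 per group, with groups and replicate numbers taken from the labels. The authors deposited counts per gene without normalization, from reads trimmed with Trim Galore 0.6.7, mapped with STAR 2.7.10a to mm10 and counted with featureCounts 2.0.2, as the processing notes and methods name them. The annotation release, the use of strand and whether reads or pairs were counted are not given in the sources used here. The methods describe a fixed concentration for input only, since too little RNA came off the beads to be quantified, and Smart-seq2 amplified the cDNA, so recovery was compared only relative to each library's total.

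Of 55401 gene identifiers, 55141 were named through GENCODE vM21. FPKM was computed here from counts and the deposited exon lengths. Counts were tested with edgeR 4.0.16 in R 4.3.3 (filterByExpr, TMM, quasi-likelihood test over all 9 libraries, Benjamini-Hochberg over 22510 genes, called at adjusted p under 0.05 and fold over 2), after a check on simulated counts. Bounds used 3 counts per library, or 6, and intervals from counts cover counting error only. Alternatives used DESeq2 1.42.0 and limma 3.58.1 among 21 settings, and plots used matplotlib 3.10.9.

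The genes, lists, markers and tests were chosen with earlier results of these data known. Genes called against both groups, those furthest from 0 in each comparison and the best known of each role are given per library, and other genes by values or ranges; of other meiotic genes, those called against both were named, except for a result that is not reported here. 1 listed symbol that named another gene was dropped. Same-numbered libraries of different groups did not deviate together, so the numbers were not used for pairing. Replicates within groups differed beyond sampling noise. The number of unused sample columns was 0.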

Additional observations from a re-analysis of the deposited data

How the results depend on the processing

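The 7 genes lower in acRIP than in both groups numbered 7 to 8 with each library left out in turn, and those lower than input 11 to 12. Genes lower than IgG numbered 7 to 10 in the same way, and the median against IgG ranged from -0.32 to -0.21. In fits of only the 6 libraries compared and with halved counts, 6 genes were lower than both, without Rad21l, which was not tested in either. With halved counts, 1 gene was lower in IgG than in input. A test against a fold change of 2 left 1 gene higher in acRIP than in IgG and 1 lower in IgG than in input. The rule on FPKM + 1, the measure the study describes for its cell line, shrinks the ratios of scarce genes by construction. It gave 0 higher and 5 lower against IgG, and 0 lower in IgG than in input. It took the call against IgG from Prdm9 (0.44), Mei1 (0.58), Rad21l (-0.57), Hfm1 (-0.93), Stra8 (-0.98) and Terb1 (-0.92), and the call against input from Rad21l (-0.51), Mei4 (-0.43) and Spata22 (-0.85). Without a fold limit, 7, 7 and 10 genes were higher in acRIP over IgG, acRIP over input and IgG over input, and 22, 23 and 17 were lower. Against both groups 5 were then higher and 17 lower. With the replicate block, 8 genes were lower in acRIP than in IgG, the loss being Terb1, and the block changed no other call of these genes. No called value changed direction. Over all genes, 1774 were higher and 3829 lower than both in the fit reported. Fits of only the 6 libraries compared called 2376 lower than both, the FPKM + 1 rule 703 higher and 843 lower, the test against a fold of 2 called 954 higher, and no fold limit gave 4108 and 6532. Against IgG, 2590 higher became 1526 in the test against a fold of 2 and 1048 (with 1525 lower, from 4701) under the FPKM + 1 rule, which against input gave 1871 and 2061 in place of 3984 and 5145. For IgG over input, 3028 higher and 1626 lower became 1724 and 563, and 1313 and 465, under the same 2 settings, and a pseudocount of 0.1 gave 2752 lower. Low counts limit Rad21l and Mei4, which did not pass the filter with halved counts.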
